A study of Homo sapiens with 6 samples.

Results

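The genes described here are 49 human genes of DNA replication and of the passage of the cell cycle from G1 into S phase. They were taken as a list of gene symbols, and the rows were found by matching each Ensembl identifier to its symbol. All 49 had a row among the 60612 identifiers of the count table, and all 49 passed the filter on low counts among 17224 genes tested. Counts of the 49 ran from 219 for POLE2 in 1 library to 67600 for MCM7 in another. They were read from RNA sequencing of U937 cells, an established human line of immature myeloid cells that the labels describe as acute myeloid leukemia of wild-type genotype. Cells were grown with 10% fetal bovine serum and then kept in RPMI-1640 without serum, in both groups. The B2 group (n = 3 libraries) received 1 µM of a compound known only by the code name B2 for 36 h, and the DMSO group (n = 3 libraries) received the vehicle for 36 h. The series title names S100A9 as the target under study. Libraries are called here B2 1, B2 2, B2 3 and DMSO 1, DMSO 2, DMSO 3 after the replicate numbers of the labels. The labels do not say whether libraries came from separate cultures, so the spread behind each p-value may be technical variation. With treatment as the only term, that spread is how far libraries of 1 group lie apart. With replicate number as a further term, it is how far the difference between B2 and DMSO varies from number to number.

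In late G1, cyclin E with its kinase releases the E2F transcription factors from the retinoblastoma protein, and E2F then turns on most of the genes that copy DNA. Origins are licensed when ORC, CDC6 and CDT1 load the ring-shaped MCM helicase, and CDC45 and the GINS complex turn that ring into a moving helicase at the start of S phase. Polymerase alpha with primase lays down primers, the RFC clamp loader places the PCNA ring, and polymerases delta and epsilon extend both strands from nucleotides that ribonucleotide reductase and thymidylate synthase supply. Serum-starved or differentiating myeloid cells are known to leave the cycle, and these genes are commonly read as a measure of proliferation.

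No replication or G1/S gene passed the test of B2 against DMSO. In edgeR's quasi-likelihood test 0 of 49 had an adjusted p below 0.05, where 0% of all tested genes did, and 0 of 49 had an unadjusted p below 0.05, against 0.493% of all tested genes. DESeq2 and limma-voom also called 0 of the 49. The adjusted p of every member was 1.0. On the log2 scale 23 members were positive (higher with B2) and 26 negative, with a median of -0.01 beside -0.08 for all tested genes, and they ran from -0.57 for POLA1 to 0.47 for CDC6. In 0 of 49 members did the 3 B2 libraries lie wholly above or below the 3 DMSO libraries, a separation that 3.56% of all tested genes showed. Same-numbered libraries differed in 1 direction in all 3 pairs for 7 of 49 members, beside 15.9% of all tested genes. ORC6, RFC5 and RPA3 were the 3 that read higher with B2 in every pair, and RFC3, DSCC1, POLE2 and CCNE2 the 4 that read lower.

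These tests leave room for moderate differences. The 95% interval of the fold change lay within 2-fold in either direction for 24 of 49 members, against 36.6% of all tested genes, and the remaining 25 intervals reached past 2-fold on at least 1 side. These values, like the fold changes given with each gene, come from the fit with treatment as the only term. With replicate number as a block beside treatment, 44 of 49 intervals lay within 2-fold, against 58.2% of all tested genes, and 0 members were called (0 with an unadjusted p below 0.05). The block narrowed the SE of 48 members, changed the sign of 8 fold changes, and gave a range from -0.54 for POLE2 to 0.72 for CDC6. Without the block the median SE of a member's log2 fold change was 0.36, against 0.26 with it, and without it the narrowest was that of RPA2 (0.24) and the widest that of MCM10 (0.70). In bulk RNA a lower level can mean fewer cells of a kind or less RNA per cell, and these cannot be told apart. Reads of 7 members can also come from another gene whose exons overlap on the same strand (among them FEN1 with FADS2, PRIM1 with NACA and CHAF1B with MORC3). For 16 members, among them MCM2, MCM7, RFC4, RFC5, TYMS and CCNE2, exons overlap a gene on the opposite strand, and the strand setting of the counting is not given in the sources used here. Processed pseudogenes named after 10 of the members read at most 0.142 CPM in any library.

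Library totals ran from 61150740 to 71825659 counts with B2 and from 64807118 to 78431054 with DMSO. Myeloid markers, led by ITGB2 and LYZ, were present in all 6 libraries, with summed levels of 5663, 5262 and 9779 CPM in B2 1, 2 and 3, against 7402, 4949 and 10481 CPM in DMSO 1, 2 and 3. Macrophage markers summed to 25.1, 18.04 and 1016 CPM in B2 1, 2 and 3, against 39.3, 18.3 and 1075 CPM in DMSO 1, 2 and 3. The libraries numbered 3 therefore stood apart from the other 4 in both groups. SIGLEC1 and VSIG4 gave most of that sum. The marker list was chosen with earlier results of these data known, so its share of calls is a description and no test. Of 12 macrophage markers listed, 9 passed the filter and 8 were called between replicate numbers, against 2.68% of all tested genes. The one not called, APOE, went the other way, with 2.32, 1.26 and 0.858 CPM in B2 1, 2 and 3, against 1.68, 0.915 and 0.438 CPM in DMSO 1, 2 and 3. MRC1 was at 0 in all 6 libraries, MSR1 in 5 and C1QB in 4. Epithelial keratin and adhesion genes summed to 41.8, 40.3 and 54.7 CPM in B2 1, 2 and 3, against 9.98, 16.6 and 39.7 CPM in DMSO 1, 2 and 3, and 11 of 11 tested (of 12 listed) had a positive fold change, none of them called. EPCAM, CLDN3 and ESRP1 were at 0 in DMSO 1. The T cell genes CD3D, CD3E and CD3G and the B cell gene MS4A1 were at 0 in all libraries, fibroblast markers summed to at most 8.19 CPM and erythroid markers to at most 0.283 CPM. The part of the epithelial and macrophage markers in the comparison of B2 with DMSO was not tested.

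**Figure D1:**
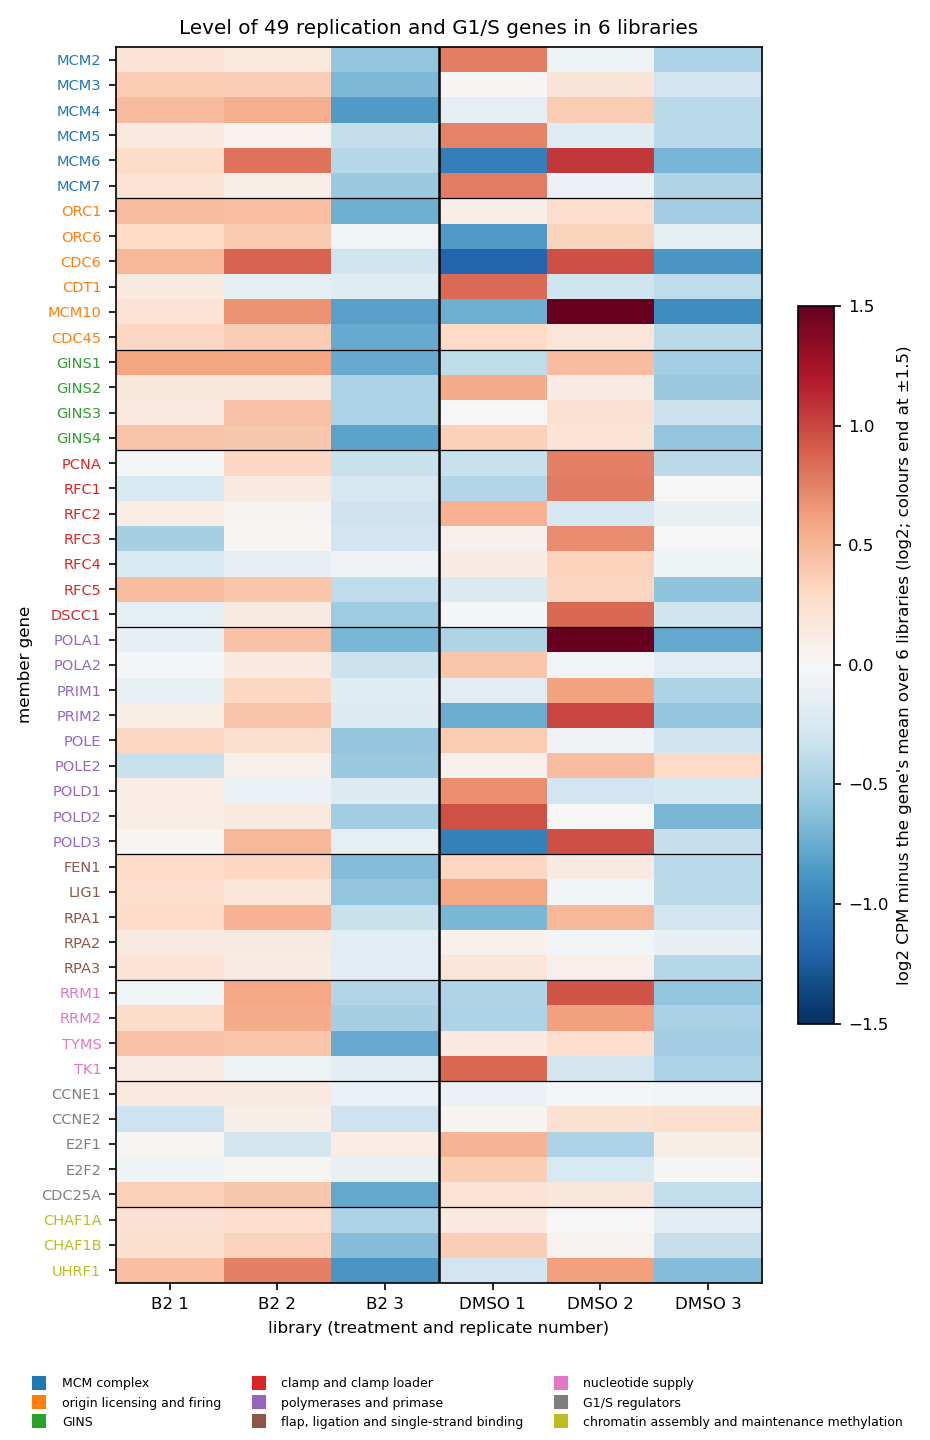
Colour shows the log2 CPM of each of the 49 genes (rows, grouped by role) in each library (columns, B2 left of DMSO) minus that gene's mean over the 6 libraries. The B2 3 and DMSO 3 columns are mostly blue, 30 genes being lowest in both, and the DMSO 1 and DMSO 2 columns often show opposite colours, as for MCM6 and MCM7.

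None of the MCM2 to MCM7 helicase subunits was called between B2 and DMSO, but all 6 read lower in libraries 3 than in libraries 2 of the same treatment. MCM2 stood at 385, 373 and 221 CPM in B2 1, 2 and 3, against 569.6, 316 and 241 CPM in DMSO 1, 2 and 3. MCM7, also the subunit with the highest level per length of transcript, stood at 824, 763 and 483 CPM in B2 1, 2 and 3, against 1211, 671 and 521 CPM in DMSO 1, 2 and 3. In both genes the highest library was DMSO 1 and the lowest was B2 3, and the groups overlapped. MCM5 followed the same order among DMSO libraries, with 313, 293 and 221 CPM in B2 1, 2 and 3, against 470.2, 247 and 212 CPM in DMSO 1, 2 and 3. MCM3 stood at 489.8, 488 and 236 CPM in B2 1, 2 and 3, against 383, 429.7 and 308 CPM in DMSO 1, 2 and 3. MCM4 stood at 455, 474 and 181 CPM in B2 1, 2 and 3, against 295, 426 and 247 CPM in DMSO 1, 2 and 3. For MCM3 and MCM4 the highest values were B2 1 and B2 2 and the lowest was B2 3, so that both ends of the range lay in the B2 group. MCM6 was lowest in DMSO 1, where MCM2, MCM5 and MCM7 were highest and MCM3 and MCM4 lay below DMSO 2. It stood at 296, 426 and 181 CPM in B2 1, 2 and 3, against 119, 507 and 150.3 CPM in DMSO 1, 2 and 3. The log2 fold changes of the 6 subunits lay between -0.22 (MCM7, SE 0.38) and 0.22 (MCM6, SE 0.57), and that of MCM6 was 0.44 (SE 0.31) with the replicate block. Added up, the 6 subunits gave 2762, 2816 and 1522 CPM in B2 1, 2 and 3, against 3047, 2597 and 1679 CPM in DMSO 1, 2 and 3, so that number 3 held 54.6% of the mean of numbers 1 and 2 with B2 and 59.5% with DMSO.

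The subunits form a protein ring with 1 copy of each. Their levels per length are set beside each other here as levels of RNA, which do not give the make-up of the protein ring. MCM6 read 79.3, 114 and 48.3 CPM per kb in B2 1, 2 and 3, against 31.9, 136 and 40.2 CPM per kb in DMSO 1, 2 and 3. MCM7 read 279, 258 and 163 CPM per kb in B2 1, 2 and 3, against 409.6, 227 and 176 CPM per kb in DMSO 1, 2 and 3. The ratio of MCM7 to MCM6 was therefore 3.51, 2.26 and 3.38 in B2 1, 2 and 3, against 12.8, 1.67 and 4.38 in DMSO 1, 2 and 3. The DMSO group thus held both the most uneven and the most even ratio of the 6 libraries. MCM6 has the lowest GC content of the subunits (43.1%), and MCM2 and MCM7 the highest (58.1% each). After each library's trend with gene length and GC content was removed, the ratio was 7.55 in DMSO 1 and lay between 2.73 and 3.76 in the other 5 libraries.

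**Figure D2:**
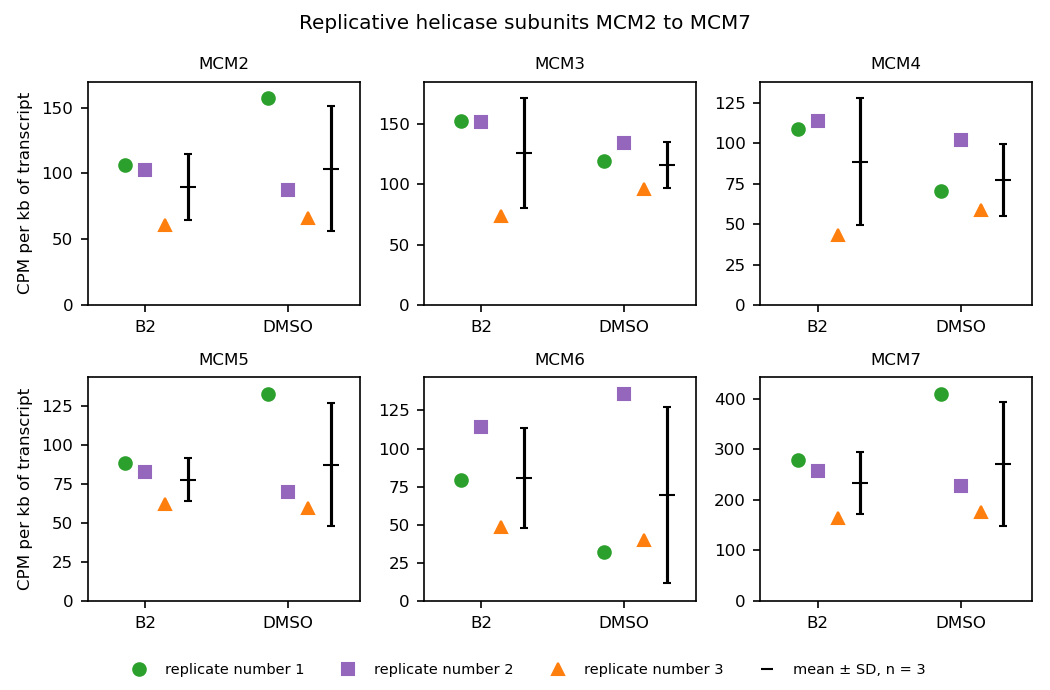
Each panel gives 1 helicase subunit in CPM per kb of transcript on an axis from 0, with B2 libraries left of DMSO libraries, a symbol for each replicate number, and the mean ± SD of 3 libraries in black. Number 3 is the lowest of its group in each panel but that of MCM6, where DMSO 1 (31.9 CPM per kb) lies below DMSO 3 (40.2 CPM per kb).

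Among the genes that license and fire origins, none was called between B2 and DMSO, and MCM10 was called between replicate numbers. MCM10, a scaffold of the firing helicase, stood at 8.16, 11.2 and 3.995 CPM in B2 1, 2 and 3, against 4.25, 21.1 and 3.698 CPM in DMSO 1, 2 and 3. DMSO 2 was the highest and both libraries 3 were lowest, with a log2 difference of -1.38 between number 3 and the mean of numbers 1 and 2. It was the only member called in the F test across replicate numbers (edgeR, 2 degrees of freedom, adjusted p = 0.0476), 1 of 49 against 2.68% of all tested genes. That share is near the background. MCM10 was called in 11 of 18 other settings of this test and not in the rest, which include the fits without DMSO 1, without DMSO 2 and without DMSO 3. Its fold change between treatments was -0.31 with an SE of 0.70, 0.93 without DMSO 2 and 0.04 (SE 0.35) with the replicate block. CDC6, which loads the helicase with ORC, had the highest fold change of the members and stood at 43.97, 57.5 and 25.4 CPM in B2 1, 2 and 3, against 13.7, 60.9 and 16.99 CPM in DMSO 1, 2 and 3. It was low in DMSO 1 and high in DMSO 2, and the groups overlapped (log2 fold change 0.47, SE 0.59, 95% interval -0.87 to 1.82). Between same-numbered libraries its log2 difference, B2 minus DMSO, was 1.69, -0.08 and 0.58 for numbers 1, 2 and 3, and its fold change ran from 0.13 without DMSO 1 to 1.43 without DMSO 2, and was 0.72 (SE 0.34) with the replicate block. Its partner CDT1, which is degraded in S phase, was high in DMSO 1, where CDC6 was low, with 123, 102 and 98.5 CPM in B2 1, 2 and 3, against 200.5, 90.8 and 85.3 CPM in DMSO 1, 2 and 3 (log2 fold change -0.22, SE 0.37). DMSO 1 was the highest CDT1 library and DMSO 3 the lowest. ORC6, the smallest origin recognition subunit, stood at 38.3, 40.9 and 30.3 CPM in B2 1, 2 and 3, against 17.2, 39.3 and 28.05 CPM in DMSO 1, 2 and 3. DMSO 1 was the lowest ORC6 library and the other 5 lay between 28.0 and 40.9 CPM (log2 fold change 0.37, SE 0.35). ORC1 ranged over 57.4 to 132 CPM with B2 and 66.5 to 114 CPM with DMSO. CDC45, part of the moving helicase, ranged over 32.6 to 71.6 CPM with B2 and 41.7 to 67.5 CPM with DMSO. Both of these genes were lowest in B2 3 and DMSO 3.

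All 4 GINS subunits, which bind CDC45 and the helicase, were lowest in B2 3 and DMSO 3, and none was called between treatments. Their sum was 212, 214 and 104 CPM in B2 1, 2 and 3, against 188, 195 and 113 CPM in DMSO 1, 2 and 3. GINS1 averaged 56.7 ± 24.9 CPM with B2 and 44.7 ± 17.6 CPM with DMSO (SD, n = 3 each; log2 fold change 0.34, SE 0.43). GINS2 ranged over 35.7 to 55.7 CPM with B2 and 33.8 to 72.8 CPM with DMSO. GINS3 ranged over 12.99 to 24.5 CPM with B2 and 14.5 to 21.2 CPM with DMSO. GINS4 ranged over 27.6 to 64.6 CPM with B2 and 31.8 to 61.5 CPM with DMSO. The fold changes of the 4 lay between -0.12 and 0.34 on the log2 scale. GINS3 had the lowest level per length of the 4 in every library, from 5.71 CPM per kb in B2 3 to 10.8 CPM per kb in B2 2.

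The sliding clamp and its loaders held 4 of the 8 smallest p-values for B2 against DMSO, none of which passed the threshold. PCNA, the clamp, stood at 263, 330.0 and 212 CPM in B2 1, 2 and 3, against 212, 449 and 203 CPM in DMSO 1, 2 and 3. The highest library was DMSO 2 and the B2 values lay inside the range of DMSO (log2 fold change -0.10, SE 0.37). RFC3, a small loader subunit with the smallest p of all members, stood at 14.6, 20.96 and 16.8 CPM in B2 1, 2 and 3, against 21.5, 33.7 and 20.5 CPM in DMSO 1, 2 and 3. B2 1 and B2 3 were the lowest and DMSO 2 the highest, and B2 2 (21.0 CPM) overlapped DMSO 3 (20.5 CPM). The RFC3 fold change was -0.53 on the log2 scale with an SE of 0.32 and a 95% interval of -1.26 to 0.20 (edgeR unadjusted p = 0.131). RFC4 stood at 17.1, 18.4 and 19.3 CPM in B2 1, 2 and 3, against 21.8, 25.3 and 19.1 CPM in DMSO 1, 2 and 3. RFC5 stood at 55.3, 53.6 and 30.9 CPM in B2 1, 2 and 3, against 34.5, 50.2 and 26.4 CPM in DMSO 1, 2 and 3. The 2 subunits differed in sign, with -0.27 (SE 0.27) for RFC4 and 0.33 (SE 0.35) for RFC5, and the groups of both overlapped. DSCC1, part of an alternative loader that acts in sister chromatid cohesion, stood at 7.601, 9.17 and 5.78 CPM in B2 1, 2 and 3, against 8.19, 15.2 and 6.78 CPM in DMSO 1, 2 and 3. Its fold change of -0.42 (SE 0.39) shrank to -0.03 without DMSO 2, the highest library. RFC1, the large subunit, ranged over 27.3 to 36.1 CPM with B2 and 24.03 to 55.9 CPM with DMSO. RFC2 ranged over 71.1 to 95.3 CPM with B2 and 73.8 to 126 CPM with DMSO. RFC2 per length was 7.15 to 9.80 times RFC1 with B2, against 3.78 to 15.05 times with DMSO, where the ends of the range were DMSO 2 and DMSO 1.

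Of the 9 polymerase and primase genes, 7 had a negative and 2 a positive fold change, with a median of -0.14, and none was called. POLA1, the catalytic subunit of polymerase alpha, stood at 19.7, 29.2 and 13.3 CPM in B2 1, 2 and 3, against 15.7, 64.1 and 12.6 CPM in DMSO 1, 2 and 3. DMSO 2 was the highest and the other 5 libraries lay between 12.6 and 29.2 CPM. The POLA1 fold change of -0.57, the lowest of all members, carried an SE of 0.63, was 0.51 without DMSO 2 and -0.24 (SE 0.33) with the replicate block. POLE2, the second subunit of polymerase epsilon, had the lowest counts of the members and stood at 4.19, 5.599 and 3.62 CPM in B2 1, 2 and 3, against 5.54, 7.28 and 6.47 CPM in DMSO 1, 2 and 3. B2 1 and B2 3 were lowest and B2 2 lay just above DMSO 1 (log2 fold change -0.52, SE 0.32, 95% interval -1.26 to 0.21). POLE, the catalytic subunit, ranged over 108 to 199 CPM with B2 and 131 to 209.5 CPM with DMSO. POLA2, the second subunit of polymerase alpha, ranged over 50.3 to 69.2 CPM with B2 and 55.7 to 83.4 CPM with DMSO. The primase subunits did not separate the treatments either, PRIM1 ranging over 18.8 to 26.3 CPM with B2 and 15.5 to 32.2 CPM with DMSO. PRIM2 ranged over 12.02 to 18.7 CPM with B2 and 8.33 to 27.9 CPM with DMSO. In polymerase delta the catalytic subunit POLD1 ranged over 154 to 190.1 CPM with B2 and 145 to 287 CPM with DMSO. POLD2 ranged over 130.2 to 207 CPM with B2 and 117 to 362 CPM with DMSO, with DMSO 1 the highest. POLD3 ranged over 30.5 to 47.2 CPM with B2 and 16.5 to 65.3 CPM with DMSO, with DMSO 1 the lowest and DMSO 2 the highest. POLD2 per length was 7.56 to 10.5 times POLD3 in the B2 libraries, against 38.8, 5.09 and 7.83 times in DMSO 1, 2 and 3.

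Genes that finish Okazaki fragments and coat single strands showed the same lack of separation. FEN1, the flap nuclease, ranged over 80 to 157 CPM with B2 and 95.1 to 156 CPM with DMSO. LIG1, the ligase, ranged over 100.4 to 182 CPM with B2 and 115 to 227 CPM with DMSO. RPA2 had the narrowest interval of the members, -0.47 to 0.62, and averaged 176 ± 20.2 CPM with B2 and 167 ± 10.9 CPM with DMSO (SD, n = 3 each). The other two subunits of the RPA heterotrimer were RPA1, which ranged over 111 to 202 CPM with B2 and 87.8 to 199 CPM with DMSO, and RPA3. RPA3 ranged over 35.7 to 45.7 CPM with B2 and 29.4 to 44.9 CPM with DMSO. FEN1, LIG1, RPA2 and RPA3 were lowest in both libraries 3, and RPA1 was lowest in DMSO 1.

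The genes of nucleotide supply also overlapped between the treatments, and none was called. RRM2, the S phase subunit of ribonucleotide reductase, stood at 469, 570.3 and 276 CPM in B2 1, 2 and 3, against 282, 596 and 278 CPM in DMSO 1, 2 and 3. TYMS, thymidylate synthase, stood at 223, 219.5 and 97.3 CPM in B2 1, 2 and 3, against 183, 198 and 115 CPM in DMSO 1, 2 and 3. Both were lowest in B2 3 and DMSO 3, although RRM2 in DMSO 3 (278 CPM) and DMSO 1 (282 CPM) were close. TK1, the salvage thymidine kinase, stood at 91.7, 80.04 and 74.7 CPM in B2 1, 2 and 3, against 153, 69.8 and 60.8 CPM in DMSO 1, 2 and 3. DMSO 1 was the highest TK1 library and DMSO 3 the lowest. The fold changes were 0.19 (SE 0.41) for RRM2, 0.12 (SE 0.38) for TYMS and -0.20 (SE 0.38) for TK1. RRM1, the large reductase subunit, ranged over 71.3 to 145 CPM with B2 and 64.3 to 186 CPM with DMSO. Per length, RRM2 was 3.48 to 4.46 times RRM1 with B2, against 2.87 to 3.88 times with DMSO. Together the 4 genes gave 879, 1014 and 519 CPM in B2 1, 2 and 3, against 689, 1049 and 518 CPM in DMSO 1, 2 and 3.

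The cyclin E and E2F genes, which act upstream of the rest, separated neither the treatments nor the libraries numbered 3. CCNE1, cyclin E1, stood at 17.4, 17.2 and 14.7 CPM in B2 1, 2 and 3, against 14.7, 15.4 and 15.3 CPM in DMSO 1, 2 and 3. The 6 libraries lay within a narrow range and the groups overlapped (log2 fold change 0.12, SE 0.26, 95% interval -0.49 to 0.72). CCNE2, cyclin E2, stood at 5.88, 7.71 and 5.84 CPM in B2 1, 2 and 3, against 7.47, 8.53 and 8.72 CPM in DMSO 1, 2 and 3. B2 1 and B2 3 were below all DMSO libraries, and B2 2 lay above DMSO 1 (log2 fold change -0.35, SE 0.29). E2F1 stood at 86.3, 70.4 and 92.02 CPM in B2 1, 2 and 3, against 121, 61.6 and 90.7 CPM in DMSO 1, 2 and 3. DMSO 1 was the highest and DMSO 2 the lowest, with the 3 B2 libraries between them (log2 fold change -0.13, SE 0.30). E2F2 ranged over 97.8 to 107 CPM with B2 and 90.5 to 136 CPM with DMSO. CDC25A, the phosphatase that activates cyclin E and cyclin A kinases, behaved unlike these 4 and stood at 88.5, 91.2 and 40.4 CPM in B2 1, 2 and 3, against 79.3, 77.5 and 53.5 CPM in DMSO 1, 2 and 3. B2 3 and DMSO 3 were its 2 lowest libraries. Its fold change between treatments was 0.07 with an SE of 0.36.

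The last 3 members deal with chromatin behind the fork. UHRF1, which recruits the maintenance methyltransferase to newly copied DNA, stood at 97.3, 119 and 38.8 CPM in B2 1, 2 and 3, against 58.1, 108 and 45.1 CPM in DMSO 1, 2 and 3. CHAF1A ranged over 86.9 to 146 CPM with B2 and 107 to 134 CPM with DMSO. CHAF1B, the other gene here of chromatin assembly factor 1, ranged over 36.6 to 73.3 CPM with B2 and 45.3 to 74.2 CPM with DMSO. The 3 genes were lowest in B2 3 and DMSO 3, and their fold changes between treatments lay between -0.01 and 0.27.

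**Figure D3:**
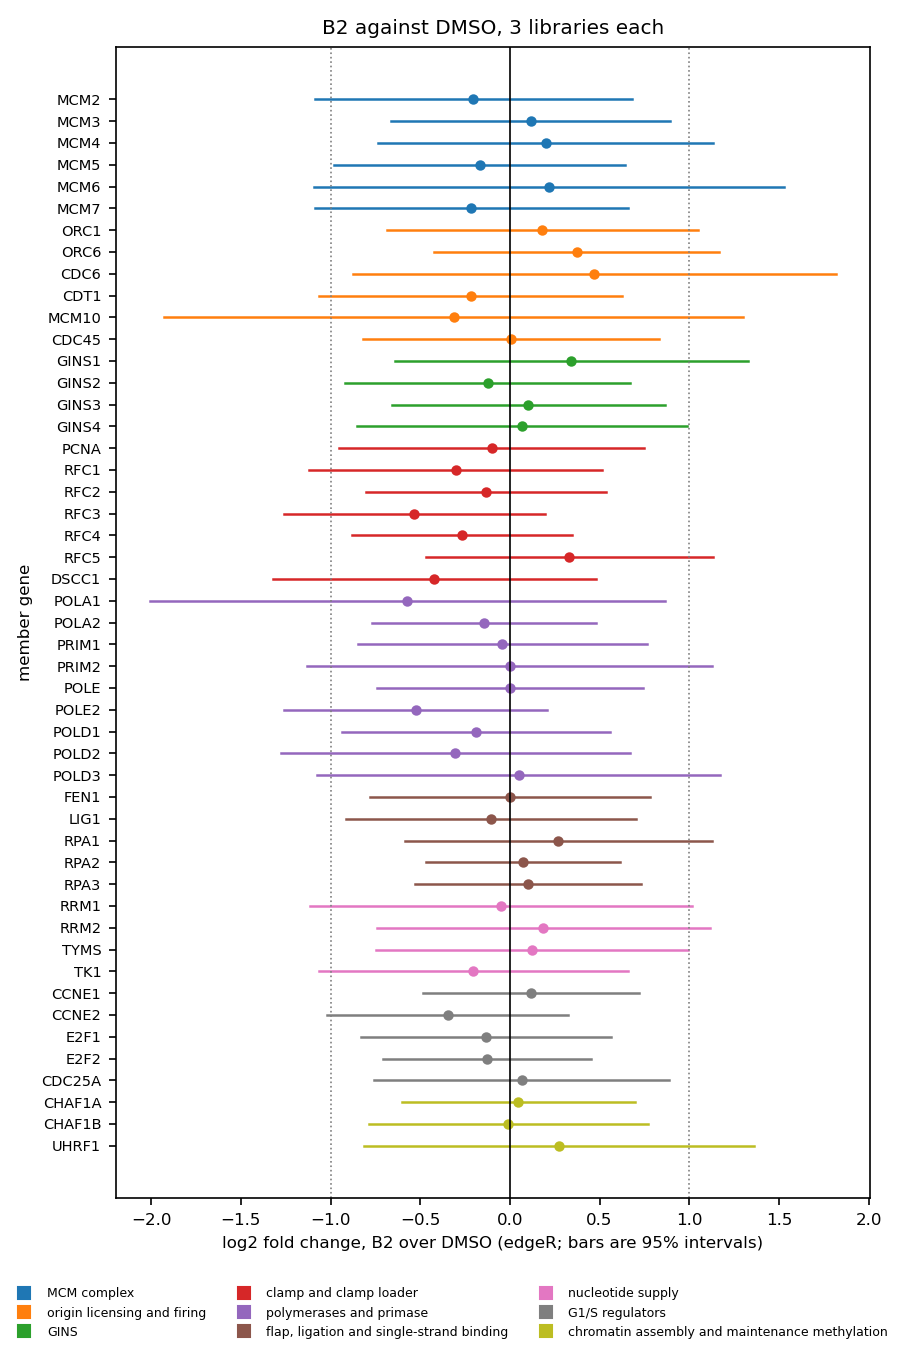
Points give the edgeR log2 fold change, B2 over DMSO, of each of the 49 genes with treatment as the only term, with 95% intervals as bars, coloured by role, and dotted lines at 2-fold. All 49 intervals include 0, and those of MCM10, POLA1 and CDC6 are among the widest.

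Most of these genes read lower in number 3 than in numbers 1 and 2 of the same treatment. This pattern was chosen for description after its values were seen. The members are not independent replicates, and their number 3 values all come from the same 2 libraries. The median log2 difference of number 2 from number 1 was 0.07 over the members and 0.16 over all tested genes. Both number 3 libraries lay below the other 4 for 30 of 49 members, against 12.1% of all tested genes, and above the other 4 for 0 of 49, against 12.3%. Within the B2 group, B2 3 was below B2 1 and B2 2 for 46 of 49 members, where 41.5% of all tested genes were. Within the DMSO group, DMSO 3 was below DMSO 1 and DMSO 2 for 35 of 49, where 22.7% of all tested genes were. The median log2 difference of number 3 from the mean of numbers 1 and 2 was -0.63 over the members and -0.05 over all tested genes. The sum of the 49 genes was 6840.0, 7169 and 4190.3 CPM in B2 1, 2 and 3, against 7104, 6914 and 4448 CPM in DMSO 1, 2 and 3, so that number 3 held 59.8% of the mean of numbers 1 and 2 with B2 and 63.5% with DMSO. The counts of 30, 46 and 35 became 37, 47 and 41 with the length and GC trend removed, and 25, 46 and 28 with library totals as the only scaling. The edgeR F test gave 24 of 49 members an unadjusted p below 0.05, against 21.8% of all tested genes, but only MCM10 passed after adjustment. The next adjusted p-values were 0.0594 for POLA1, 0.0677 for MCM6, 0.0745 for RRM1, 0.0854 for UHRF1 and 0.0969 for CDC6.

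The size of the number 3 difference varied with role. On the log2 scale its median was -0.90 for the 6 licensing and firing genes, -0.86 for GINS, -0.79 for the MCM subunits, -0.77 for nucleotide supply and -0.75 for the chromatin genes. It was -0.48 for flap, ligation and single-strand binding, -0.47 for polymerases and primase, -0.32 for the clamp and its loaders and -0.08 for the G1/S regulators. The single values ran from -1.38 for MCM10 and -1.14 for UHRF1 to 0.15 for E2F1. CCNE1 (-0.11), CCNE2 (-0.03), E2F2 (-0.08) and RFC4 (-0.08) lay nearest to 0. The cyclin E and E2F genes thus lay near 0 where most genes of the helicase and of nucleotide supply read lower in number 3; this contrast between roles was not tested. The macrophage marker sums of 1016 CPM in B2 3 and 1075 CPM in DMSO 3, against 18.0 to 39.3 CPM elsewhere, moved with number 3, and their part in the lower replication genes was not tested.

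**Figure D4:**
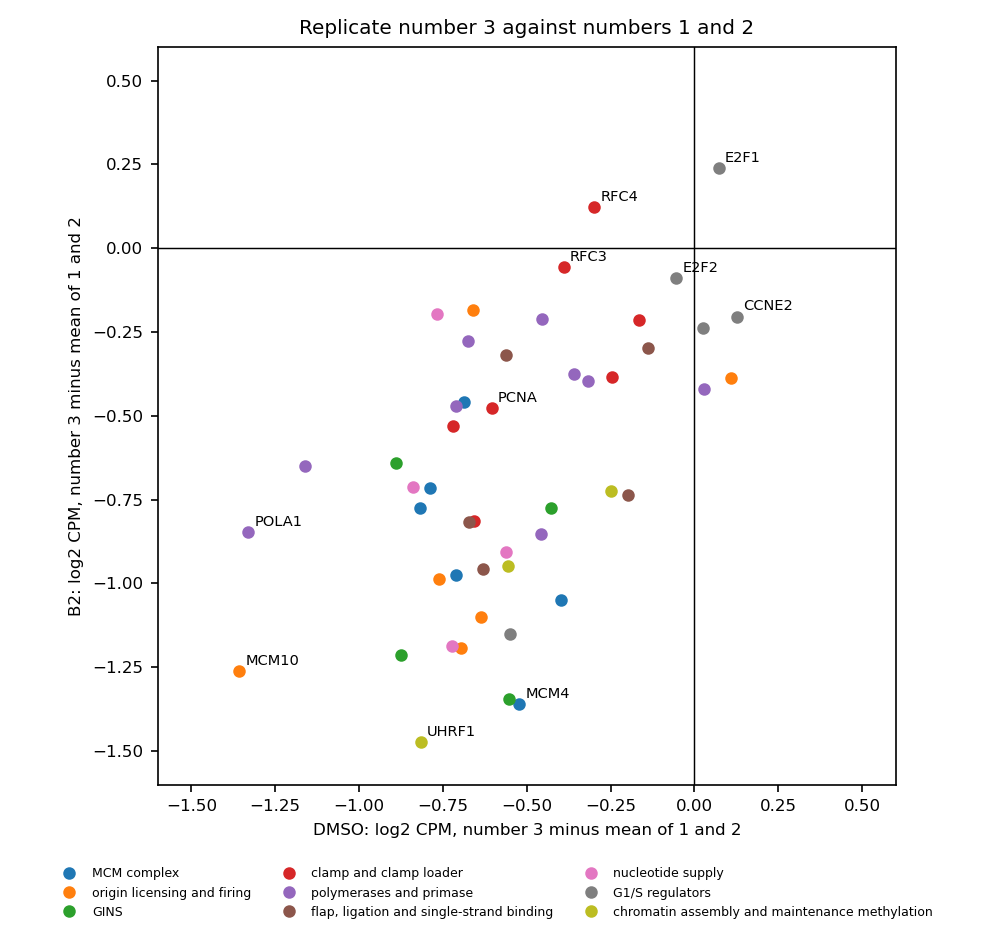
Each point is 1 gene, coloured by role, with the log2 CPM of library 3 minus the mean of libraries 1 and 2 in the B2 group (vertical) and in the DMSO group (horizontal). In the B2 group 47 of 49 genes lie below 0 and in the DMSO group 44 of 49, and E2F1 is the gene above 0 in both.

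DMSO 1 and DMSO 2 differed from each other in a way that followed base composition. Transcripts of the members ran from 36.9% GC (CCNE2) to 64.9% GC (CDT1), with a median of 48.5%, beside 50.3% for all tested genes. Of the 24 members above the median, 19 read higher in DMSO 1 than in DMSO 2, and of the other 25 members 3 did. In the B2 group, 15 of 24 and 5 of 25 read higher in B2 1 than in B2 2. Across the 49 genes the log2 difference of DMSO 2 from DMSO 1 correlated with GC content at a Pearson r of -0.74 and a Spearman rho of -0.79. These genes are not independent replicates and all points come from the same 2 libraries. The same correlation over 17015 tested genes gave an r of -0.50 and a rho of -0.58. B2 2 minus B2 1 gave an r of -0.75 over the members, but with a much smaller spread, an SD of 0.23 on the log2 scale against 0.96 for the DMSO pair. UHRF1 did not follow the trend, with 58.7% GC and a DMSO 2 level 1.86 times that of DMSO 1. With the length and GC trend of each library removed, r became -0.19 and the SD 0.58 in the DMSO pair. The difference of number 3 from numbers 1 and 2 had no such relation, with r of 0.06 in the B2 group and -0.06 in the DMSO group.

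**Figure D5:**
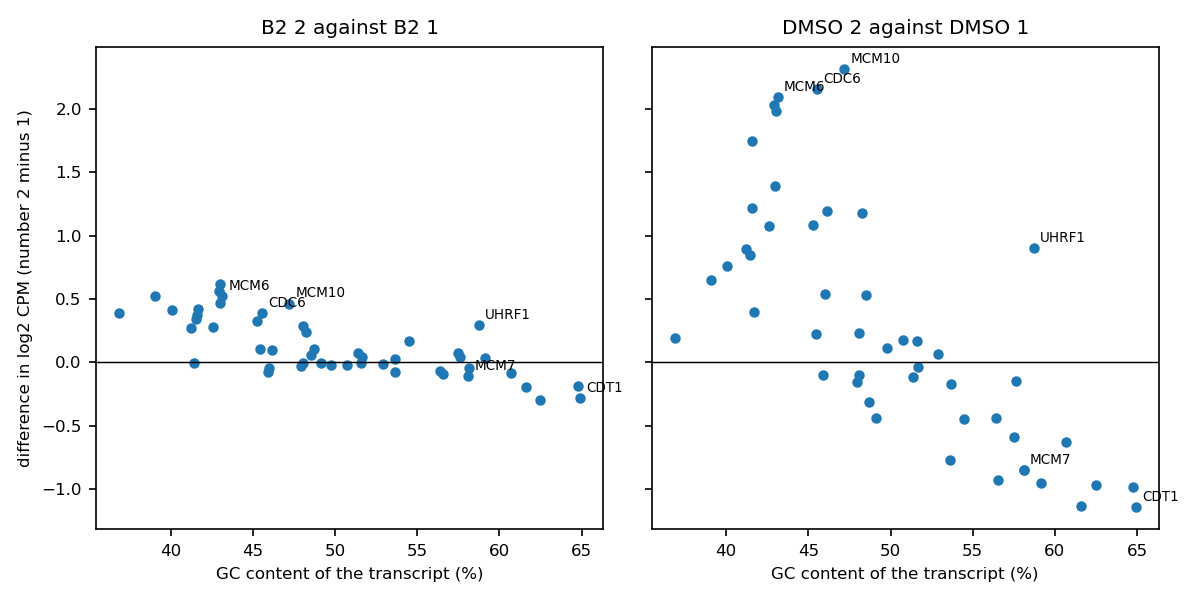
Each point is 1 of the 49 genes, with the GC content of its transcript (horizontal, %) and the difference in log2 CPM of number 2 minus number 1 (vertical) in the B2 group (left) and the DMSO group (right). The points fall from left to right in both panels, over a range of -1.14 to 2.31 in the DMSO group and a narrower one in the B2 group.

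Since E2F factors bind close to the starts of many replication genes, promoter sequence was read for the members from RefSeq (GRCh38.p14), in windows of 250 bases before to 50 bases after each start. Of the 49 members, 41 had at least 1 window, 52 windows in all. RPA2, RPA3, POLD3, MCM4, MCM5, GINS4, DSCC1 and CCNE2 had none. The letters searched, on both strands, were 4 spellings of the E2F site (TTTCGCGC, TTTGGCGC, TTTCCCGC and TTTGCCGC), the CCAAT box (CCAAT), the GC box (GGGCGG) and the cell cycle homology region of late cell cycle genes (TTTGAA). The E2F spellings can overlap each other on opposite strands, and overlapping matches were counted once. At least 1 E2F spelling stood in 22 of the 52 windows (42.3%), against 3.31% of all 35116 windows. CCAAT stood in 59.6% of the member windows against 34.6% of all, GGGCGG in 75.0% against 45.0%, and TTTGAA in 1.92% against 15.2%. The 5 stretches below are shown because they carry the E2F letters of a helicase pair that diverged in DMSO 1, of E2F1 itself, of the clamp and of the member with the lowest fold change. Each runs 5′ to 3′ on the strand of the gene and ends at the base before the start, and capitals mark E2F letters on either strand.
MCM6: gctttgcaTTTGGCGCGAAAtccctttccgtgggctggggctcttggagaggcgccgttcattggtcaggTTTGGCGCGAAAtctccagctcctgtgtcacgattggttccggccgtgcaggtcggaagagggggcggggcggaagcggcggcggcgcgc
MCM7: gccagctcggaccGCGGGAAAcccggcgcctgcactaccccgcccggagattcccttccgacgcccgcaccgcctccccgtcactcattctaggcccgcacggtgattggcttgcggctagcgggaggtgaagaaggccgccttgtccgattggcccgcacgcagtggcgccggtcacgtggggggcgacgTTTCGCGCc
E2F1: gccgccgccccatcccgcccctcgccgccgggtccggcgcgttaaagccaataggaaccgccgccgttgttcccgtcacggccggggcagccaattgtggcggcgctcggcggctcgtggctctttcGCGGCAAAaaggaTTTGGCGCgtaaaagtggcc
PCNA: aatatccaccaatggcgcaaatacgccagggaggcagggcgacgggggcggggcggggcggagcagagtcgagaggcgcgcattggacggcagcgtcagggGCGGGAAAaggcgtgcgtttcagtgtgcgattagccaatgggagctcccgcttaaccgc
POLA1: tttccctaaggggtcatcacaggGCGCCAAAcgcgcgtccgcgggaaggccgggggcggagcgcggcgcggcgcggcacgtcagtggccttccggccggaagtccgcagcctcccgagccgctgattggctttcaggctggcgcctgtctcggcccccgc
The MCM6 stretch (chr2:135876444-135876603, minus strand) holds 2 matches, each a pair of overlapping spellings on opposite strands. The MCM7 stretch (chr7:100101398-100101597, minus strand) holds 2 matches, 1 of them next to the start. The E2F1 stretch (chr20:33686386-33686545, minus strand) also holds 2 matches, and the PCNA stretch (chr20:5126623-5126782, minus strand) and the POLA1 stretch (chrX:24693758-24693917, plus strand) hold 1 each. For a gene with more than 1 window, the stretch shown is from the window with the most matches. The other windows of MCM7 and PCNA held 0 matches. MCM6 and MCM7 both hold E2F letters in the stretches shown, and the part of these letters in their levels in DMSO 1 and DMSO 2 was not tested. The 21 members with an E2F spelling had a median log2 difference of number 3 from numbers 1 and 2 of -0.75, and the 20 with a window but no such letters had -0.56. Both number 3 libraries were lowest for 14 of the 21 and for 10 of the 20. The part of E2F letters in the number 3 difference was not tested. A match is a run of letters and not a measured binding site.

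Genes beside the members in the same processes were read from 4 further lists. None of the 42 other licensing and fork genes, 23 other nucleotide supply genes, 42 other G1/S regulators and 24 G2/M genes was called between B2 and DMSO, and none had an unadjusted p below 0.05. Negative fold changes were in the majority in each, with 29 of 42, 15 of 23, 32 of 42 and 15 of 24, beside 10689 of 17224 over all tested genes. The median number 3 difference was -0.43, -0.48, -0.33 and -0.65 in the 4 lists on the log2 scale. The G2/M genes, which act after replication, summed to 2586, 2784 and 1536 CPM in B2 1, 2 and 3, against 2364, 3038 and 1538 CPM in DMSO 1, 2 and 3. Their sum, led by TPX2 and CDC20, was thus also lowest in number 3. Gene by gene, both number 3 libraries lay below the other 4 for 11 of the 24, against 12.1% of all tested genes. Between replicate numbers edgeR called 1 of 42, 2 of 23, 1 of 42 and 0 of 24 genes of the 4 lists, against 2.68% of all tested genes. Whether the lists differ from that share was not tested. The first called gene was SUPT16H, a subunit of the histone chaperone FACT (edgeR adjusted p = 0.0413). It stood at 60.6, 106 and 54.1 CPM in B2 1, 2 and 3, against 36.1, 217 and 37.98 CPM in DMSO 1, 2 and 3. The purine synthesis gene PAICS (edgeR adjusted p = 0.0459) stood at 114, 155 and 64.6 CPM in B2 1, 2 and 3, against 76.1, 193 and 51.2 CPM in DMSO 1, 2 and 3. DMSO 2 was the highest library for both, SUPT16H was lowest in DMSO 1 and PAICS in DMSO 3. The cyclin D kinase gene CDK6 was also called (edgeR adjusted p = 0.0494), at 8.48, 17.6 and 9.29 CPM in B2 1, 2 and 3, against 7.76, 29.05 and 6.94 CPM in DMSO 1, 2 and 3. TYMP, thymidine phosphorylase, went the other way at 23.6, 19.6 and 194 CPM in B2 1, 2 and 3, against 35.3, 17.2 and 172 CPM in DMSO 1, 2 and 3. It breaks thymidine down rather than supplying it, and its level was highest in both libraries 3 (edgeR adjusted p = 0.000136).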

How the data were processed

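RNA abundance was measured in 3 B2 and 3 DMSO libraries of U937 cells. The authors deposited 1 table of estimated counts per Ensembl gene, not normalized. The submitters' processing notes name HISAT2 2.0.4. What counted the reads, on which build and annotation, and whether by strand, is not given in the sources used here. Values were whole numbers already, and the value 4 occurred 6465 times against 3144 times for 3, so low counts are treated as estimates.

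Genes passing edgeR's filterByExpr (minimum count 10, minimum total 15) were scaled by TMM and tested with edgeR 4.0.16 (glmQLFit, glmQLFTest; R 4.3.3) with treatment as the only term, and across replicate numbers with treatment and number as terms, with Benjamini-Hochberg adjustment over all 17224 genes and a threshold of 0.05. CPM are counts over the TMM-scaled library total, on the usual scale, and lengths and GC content come from GENCODE 29 transcripts. Intervals are 95% and cover the spread between libraries. A count of 0 allows up to 3 counts, 0.0386 to 0.0537 CPM. Scripts were tested on simulated data.

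The members, their roles, the 4 further lists and the marker lists were chosen with earlier results of these data known. All 49 members are named, with every library's value for the 8 smallest p-values, members called between numbers, and E2F1, CCNE1, CCNE2, CDC6, CDT1, PCNA, MCM2 to MCM7, RRM2, TYMS and TK1. Across genes, the deviations from the group mean correlated between libraries of 1 number at 0.21, 0.40 and 0.50 for numbers 1, 2 and 3. Each exceeds 0.1, so the numbers count as pairing, but the values given with each gene come from the fit without the block, and blocked values are given where they move a result. No label tells what a number stands for. Alternatives were other scalings, filters, DESeq2 1.42.0, limma-voom (limma 3.58.1), counts divided by 4, the replicate block, a per-library spline trend with length and GC removed, and libraries left out. The counts of members lowest in number 3 under other scalings, number 3 left out with the block, and the intervals with the block were added after the data were seen.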

Additional observations from a re-analysis of the deposited data

How the results depend on the processing

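No member was called between B2 and DMSO under any of 21 other settings. The members' median log2 fold change was -0.02 with the replicate block, which changed no member's call, and with 1 library left out it lay between -0.18 (without DMSO 3) and 0.16 (without B2 3). The split of positive and negative fold changes was 17 to 32 with the length and GC trend removed, 35 to 14 without DMSO 1 and 9 to 40 without B2 2, and 38 of 49 members changed sign under at least 1 setting. Over all genes the count called between treatments was 1 with DESeq2, 0 to 1 with 1 library left out, and 48 without both number 3 libraries and with the replicate block, a fit on 4 libraries with no member among its calls. Genes called between replicate numbers are given with members, of 49, in brackets. Of 17224 tested genes they were 956 (3) with RLE factors, 266 (0) with library totals and 1168 (4) with upper-quartile factors. Of the same 17224 they were 1673 (12) with DESeq2, 1278 (7) with limma-voom and 809 (5) with the length and GC trend removed. They were 425 (0) of 28792 with no filter, 2078 (10) of 13556 with a stricter filter and 2379 (10) of 13948 with counts divided by 4. They were 846 (6) of 17803 without number 1, 524 (0) of 17253 without number 2 and 105 (0) of 17582 without number 3. With 1 library left out they ran from 388 of 18035 genes (without DMSO 3) to 4124 of 18029 (without B2 1). Members ran from 0 to 26 of 49, the most without B2 1. Where a number is left with 1 library, that library is taken to vary like the others. The cause of these shifts was not tested. The counts of members lowest in number 3 moved by less than 1.5 times under the 4 other scalings. The lowest member count was 219, and the part of depth in the error was not tested.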
